A study of Mus musculus with 2 samples.

Results

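A set of 129 long intergenic non-coding RNAs (lincRNAs) of mouse liver lies, base for base, opposite exons of protein-coding genes. They were chosen from a table of 614 known long non-coding RNAs (lncRNAs), 485 of which are annotated as lincRNA in GENCODE M21. A lincRNA was taken when its merged exons shared at least 50 bases with the exons of 1 coding gene on the opposite strand, which held for 137. Of these, 8 were left out by name, among them some of the most abundant and the most different between the diets. The 8 include 4 that passed the call rule given below, so the share of called lincRNAs among the 129 is lower than before they were left out.

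The liver RNA came from C57BL/6 wild-type mice at postnatal week 27. A library was made from the high fat diet (HFD) group, fed 60% fat for 23 weeks, and another from the normal diet (ND) group. The labels give hepatocytes as the cell type but describe RNA taken from removed and frozen liver, and they do not say whether animals were pooled. Neither diet has a second library, so no test of diet was possible and every interval below covers counting error only. In such tissue RNA, fewer cells of a type and less RNA per cell cannot be told apart. None of the 6 hepatocyte coding markers was listed in the lncRNA table, so the labelled cell type could not be checked with them. Of 11 names of hepatocyte lncRNA markers, a gene being entered under a second spelling, 4 were listed, with 136 reads in the HFD library and 206 in the ND library. These reads are not scaled to the library totals of 193538 and 242194, and the 4 did not all differ alike. Of 6 immune cell markers 2 were listed, Mir155hg with 8 reads against 2 and Gm12840 with 46 against 88. Gm12840 was also the 1 listed of 9 stellate and endothelial markers, and none of 4 cholangiocyte markers was listed.

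An antisense transcript is one copied from the strand opposite another gene, so that in the stretch both genes share its RNA is the exact reverse complement of the other RNA. Such pairs are usually sorted by arrangement: a divergent pair overlaps at the 5′ ends, a convergent pair at the 3′ ends, and a nested transcript lies inside the span of its partner. Antisense RNAs are known to act on their partners in some cases, through transcription across the locus, through RNA pairing or through chromatin. A library that keeps the strand of each read separates the partners, and one that does not adds them together. Which kind was made here, and whether counting used the strand, is not stated in the sources used here. In the shared bases, reads of the lincRNA and reads of the coding gene therefore cannot be told apart, and this holds for every value below.

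The sequences of 5 lincRNAs show what is shared. Each is a stretch of the lincRNA transcript in GENCODE M21 (build GRCm38), 5′ to 3′ on the lincRNA strand, with capitals for bases opposite the coding sequence of the partner. The first 4 differed at least 2-fold between the libraries, and Gm26899 had the most reads of the set. The partner of Gm44148 is Usp18, the protease that removes the interferon-induced modifier ISG15, and the partner of Gm26635 is Hic2, a zinc finger transcription factor gene. The partner of 2610020F03Rik is Map3k13, a kinase upstream of the stress kinase JNK. Those of A930003O13Rik and Gm26899 are Lhfpl3, a tetraspan membrane protein gene, and Zfp106, a zinc finger protein gene.
Gm44148, chr6:121255249-121255387, minus strand: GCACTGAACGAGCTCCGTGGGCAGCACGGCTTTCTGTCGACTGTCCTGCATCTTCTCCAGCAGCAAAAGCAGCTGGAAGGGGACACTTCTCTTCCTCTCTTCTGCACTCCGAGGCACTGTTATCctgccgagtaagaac
Gm26635, chr16:17259036-17259180, minus strand: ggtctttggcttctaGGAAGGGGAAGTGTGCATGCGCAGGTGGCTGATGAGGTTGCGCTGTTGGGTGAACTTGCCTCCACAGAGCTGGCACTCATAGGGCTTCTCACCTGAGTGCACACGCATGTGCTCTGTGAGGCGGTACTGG
2610020F03Rik, chr16:21908721-21908777, minus strand: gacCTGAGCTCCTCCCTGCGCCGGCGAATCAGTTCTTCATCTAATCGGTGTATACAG
A930003O13Rik, chr5:22746496-22746640, minus strand: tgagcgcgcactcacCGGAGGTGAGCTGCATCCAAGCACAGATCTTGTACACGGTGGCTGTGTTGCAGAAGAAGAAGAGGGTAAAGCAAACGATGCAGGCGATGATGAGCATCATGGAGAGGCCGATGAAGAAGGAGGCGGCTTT
Gm26899, chr2:120533496-120533640, plus strand: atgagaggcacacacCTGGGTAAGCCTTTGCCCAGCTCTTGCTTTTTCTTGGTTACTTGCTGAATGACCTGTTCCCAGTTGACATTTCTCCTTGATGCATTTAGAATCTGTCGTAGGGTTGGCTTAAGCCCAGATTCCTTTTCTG

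The reverse complement of each capital stretch was found in a transcript of the partner. For Gm44148 and 2610020F03Rik the capitals are the whole opposed coding stretch, 124 and 54 bases. For Gm26635, A930003O13Rik and Gm26899 only 130 bases of an unbroken coding stretch of 1831, 433 and 2169 bases are printed. The matching Usp18 stretch, on the coding strand, makes the pairing visible.
Usp18, coding strand: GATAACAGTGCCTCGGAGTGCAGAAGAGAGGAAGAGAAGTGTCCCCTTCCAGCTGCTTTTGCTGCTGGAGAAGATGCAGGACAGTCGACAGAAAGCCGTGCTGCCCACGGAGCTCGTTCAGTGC

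The 129 lincRNAs lay on 20 chromosomes and opposite 140 coding genes, and 121 of them had exactly 1 such partner. Their merged exons measured from 281 to 17946 bases, with a median of 2277, and 86 had 2 merged exons. The opposed share of the exon bases ranged from 1.31% to 100%, with a median of 28.1%. It was at least 95% in 29 lincRNAs and complete in 14, so that no base of those 14 was the lincRNA's alone. Arrangement was read from the gene spans, introns included, so the shared exon bases need not lie at the ends. Nested genes were the largest class, with 63 lincRNAs inside the span of the partner with the most shared bases. Another 27 overlapped that partner with both 3′ ends and 39 with both 5′ ends in the stretch the genes share. In the latter class the starts lay 62 to 93088 bases apart, with a median of 848, and over 5000 bases apart in 7, so that those 7 are not close divergent pairs.

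The opposed exons were often not coding sequence, although they belong to coding genes. With the partner with the most shared bases, 45 of the 129 lincRNAs shared no base of coding sequence, 9 shared 1 to 49 and 75 shared 50 or more. By the part that held most of the shared bases, 41 lay mainly opposite coding sequence, 36 opposite exons downstream of it and 34 opposite exons upstream of it. The other 18 lay mainly opposite exons between the first and the last coding base that are not coding in any annotated isoform. Gm26538 is an example of the last kind, with 3415 of 3468 shared bases in such exons of Kdm3b, a histone demethylase gene. The name of a lincRNA opposite coding exons is therefore exact for some of the set, and opposite exons of a coding gene holds for all of it.

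**Figure D1:**
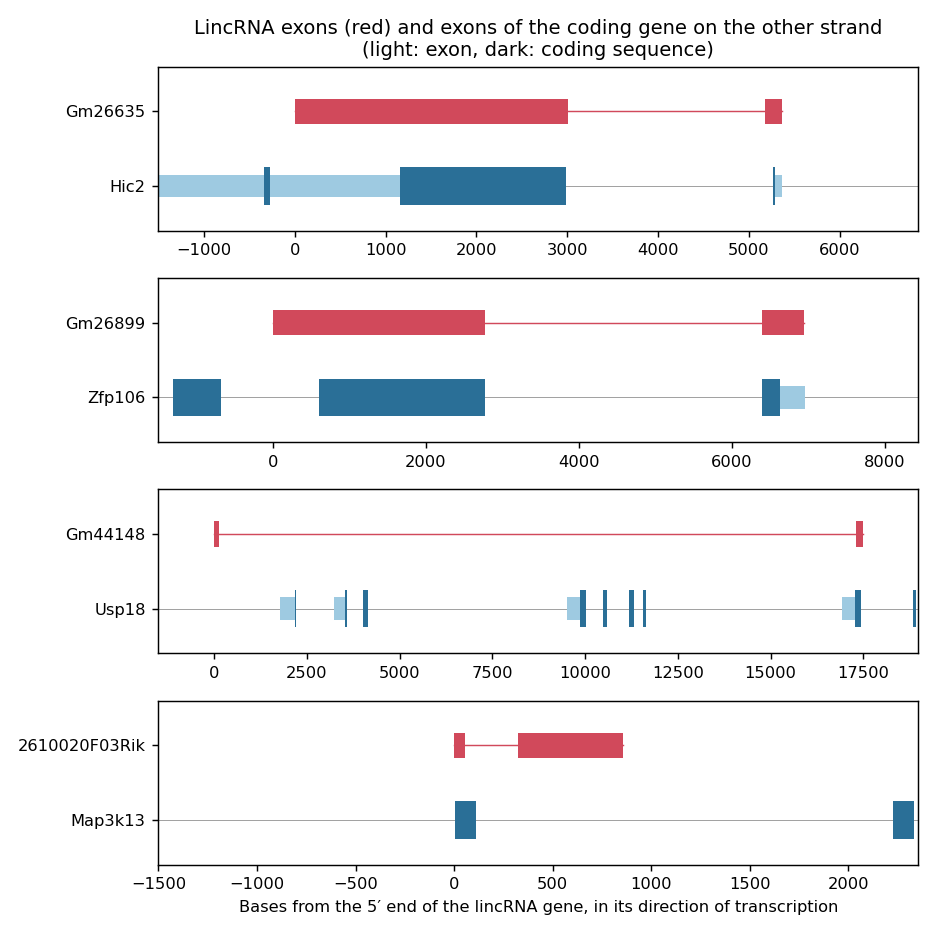
Exons of 4 lincRNAs (red) and of the coding gene on the other strand (light blue, with coding sequence in dark blue), by distance in bases from the 5′ end of the lincRNA gene. Gm26635 and Gm26899 lie over long coding exons, and Gm44148 and 2610020F03Rik touch 124 and 54 coding bases at one exon.

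Together the 129 lincRNAs held 38938 reads of the HFD library and 48000 of the ND library. This was 20.1% (95% Clopper-Pearson interval 19.9 to 20.4) and 19.8% (19.6 to 20) of the totals of 193538 and 242194 reads to which the table was scaled. The 8 lincRNAs left out by name held more reads than the 129, since with them the shares were 44.1% and 45.5%. Reads were counted in pairs, so every number of reads is 2 per pair. Levels are given in CPM, reads scaled to a total of 1000000 over this table, and compared between genes only as CPM per kb of exon. The set had a median of 329 CPM per kb in the HFD library and 348 in the ND library. The 337 lincRNAs of the table with no base opposite coding-gene exons had medians of 37.5 and 43.3.

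**Figure D2:**
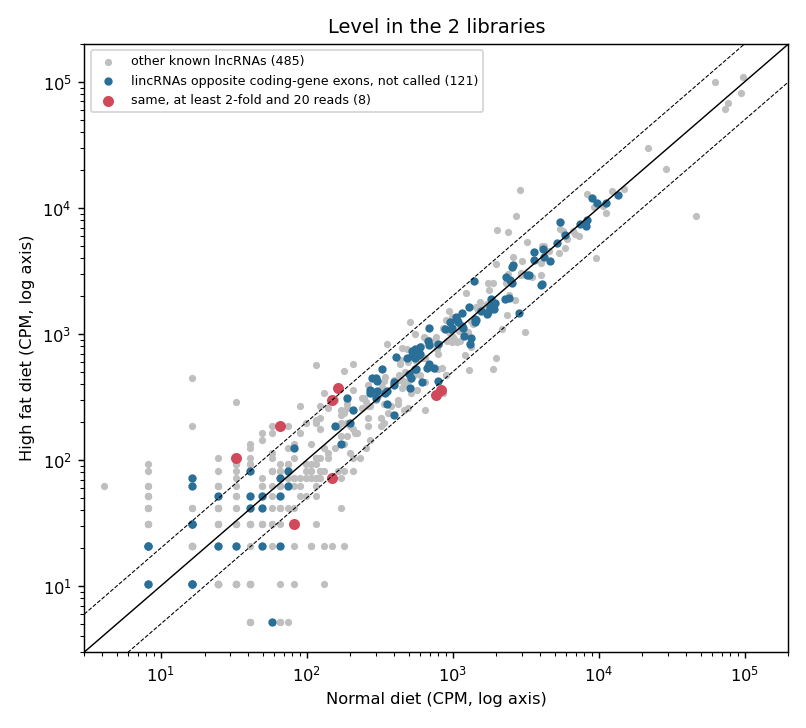
Level of every known lncRNA in the HFD library against the normal diet library, in CPM on log axes, with 1 point per lncRNA, the diagonal and 2-fold lines (dashed). Blue and red points are the 129 lincRNAs, and the 8 red ones passed the call rule (2-fold, 20 reads).

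Per length, the highest of the set was Gm16755, nested in Mrpl12, a mitochondrial ribosomal protein gene, with 7930 CPM per kb in the HFD library and 7948 in the ND library. It was followed by Gm26882, nested in Morf4l1, a chromatin reader gene, with 7066 and 7328. Next came Gm26540, with all of its 1310 exon bases opposite Dennd5b, a Rab exchange factor gene, and 6145 and 6335. The levels of these 3 were close to each other in both libraries and differed little between the diets. At the low end, Xist, the RNA that silences the inactive X chromosome, had 4.03 and 8.28 CPM per kb, and Gm26859, opposite the synaptotagmin gene Syt7, had 5.58 and 4.46, from 2 reads in each library.

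Median levels differed with arrangement. LincRNAs with both 5′ ends in the overlap had a median of 111 CPM per kb over both libraries, those with both 3′ ends 576 and nested ones 466. Without the 7 whose starts lay over 5000 bases apart, a choice made after seeing the data, the median of the 5′ class was 67.1, and that of the 7 was 484. Those mainly opposite exons upstream of the coding sequence had 132, against 426 for downstream exons and 478 for coding sequence. The classes overlapped widely, since the 5′ class reached from 6.18 to 2604 CPM per kb and the nested class from 5.02 to 7939. Over the 129 lincRNAs, the opposed share of exon bases and CPM per kb had a Spearman rho of 0.32, a description over genes that share the same libraries. With under 10% of the exon bases opposed the median was 196 CPM per kb, with 10 to 50% it was 358, with 50 to 95% it was 577 and with 95% or more it was 466.

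**Figure D3:**
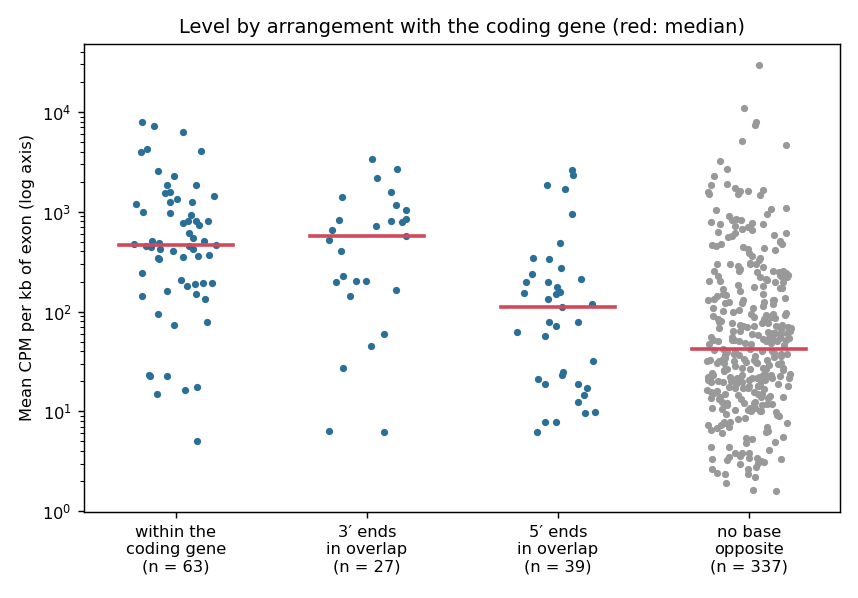
Mean CPM per kb of exon over both libraries (log axis) by arrangement with the coding gene, with 1 point per lincRNA and red lines for medians. The medians are 466 for nested lincRNAs, 576 where both 3′ ends lie in the overlap, 111 where both 5′ ends do and 41.9 for the 337 lincRNAs with no opposed base, with wide ranges in each class.

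The comparison of the diets asks which of these lincRNAs differ in liver after long high fat feeding. A call required a CPM ratio of 2 or more in either direction and, in whichever library was higher, 20 reads, a minimum that 105 of the 129 reached. On HFD, 4 of the 105 were higher and another 4 lower, or 7.62%. Over all known lncRNAs that reached the minimum, 15.9% were called, 7.69% higher and 8.24% lower. With the 8 lincRNAs left out by name, 12 of 113 were called, or 10.6%. The median log2 ratio was 0.04 for the 105 and -0.01 for all 364 known lncRNAs that reached the minimum, and 55 ratios of the 105 lay above 0 and 50 below. No lincRNA of the set differed 4-fold, against 4.12% of the 364, 1.65% higher and 2.47% lower. The 8 left out by name had log2 ratios from -2.43 to 2.27, past 4-fold on both sides. The absence of 4-fold differences therefore holds only without them.

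Depth moved with these shares. Where the higher library held 100 reads or more, 2 of 80 in the set were called, against 7 of 64 lincRNAs with no opposed base and 19 of 212 known lncRNAs. With 20 to 99 reads, 6 of 25 were called in the set, 26 of 92 without an opposed base and 39 of 152 of all. At 500 reads or more none of the 28 in the set was called, against 7 of 74 of all. The 212 and the 74 still include lincRNAs left out by name, among them called ones with log2 ratios of -2.43 and 2.27. These contrasts therefore depend in part on leaving them out. The 95% interval lay wholly within 1.5-fold for 37 of the 105, against 88 of the 364. All of these had 100 reads or more in the higher library, where they were 37 of 80 (46.25%) and 88 of 212 (41.5%). The interval excluded equal levels for 29 of the 105 (27.6%), 16 higher and 13 lower. Over the 364 it excluded them for 34.6%, 18.4% higher and 16.2% lower. These intervals are not adjusted for the number of lincRNAs.

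Gm26635 and 2610020F03Rik were the called lincRNAs with the most reads, and both were lower on the high fat diet. Gm26635 (ENSMUSG00000097764, chr16:17254960-17260326) had 70 reads in the HFD library and 202 in the ND library, or 362 and 834 CPM. It was 2.31-fold lower (95% interval 1.56 to 3.49). Almost all of it, 96.6% of its exon bases, lies opposite Hic2, a repressor of the same family as the tumour suppressor Hic1, and 1857 of these bases are coding, the stretch printed above among them. The gene 2610020F03Rik (ENSMUSG00000097332, chr16:21907922-21908777) had 64 reads against 186, or 331 and 768 CPM, and was 2.32-fold lower (1.54 to 3.59). Here 9.18% of the exon bases, the 54 printed bases, lie opposite Map3k13, and the rest of its 588 exon bases lie within that gene but outside its exons.

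Gm44148 and Gm26663 were higher on the high fat diet with fewer reads. The spans of Gm44148 (ENSMUSG00000107736, chr6:121255203-121272685) and Usp18 overlap with both 3′ ends. The 124 shared bases, however, are coding bases of an inner Usp18 exon. Gm44148 had 72 reads against 40, or 372 and 165 CPM. Its ratio was 2.25-fold (1.27 to 4.11). Gm26663 (chromosome 4) lies between Dpy19l4, a gene of a family of C-mannosyltransferases, with 194 shared bases, and Esrp1, an epithelial splicing regulator gene, with 127. It had 58 reads against 36 and was 2.02-fold higher (1.08 to 3.85), just past the threshold. Median-ratio scaling put its log2 ratio at 0.96, which ends the call.

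The remaining 4 calls rest on 50 reads or fewer over both libraries, except A930003O13Rik with 36 against 16. This lincRNA (chromosome 5), divergent from Lhfpl3, was 2.82-fold higher (1.16 to 7.48) and shares 50-base stretches with 6 genes elsewhere. Gm26578 (chromosome 8), nested in the growth factor gene Nrg1, had 20 reads against 8 (log2 ratio 1.65, -0.15 to 3.77). Xist (chromosome X), opposite the coding gene Gm26992, had 14 against 36 (-1.04, -2.54 to 0.29). Gm26847 (chromosome 10), opposite the lens water channel gene Mip, had 6 against 20 (-1.41, -3.91 to 0.54). The intervals of these last 3 include 0, so their differences were not detectable at this depth. The authors' deposited table marks 6.84% of its 614 lncRNAs as significant. Of the 129 it marks 4, all among the 8 called, namely Gm26635, 2610020F03Rik, Gm44148 and A930003O13Rik. Some members with smaller ratios, such as Gm26582 (1.33-fold higher) and Gm26723 (1.89-fold higher), had lower adjusted p-values there but were not marked. The mark therefore does not follow the adjusted p-value alone, and all 4 marked lincRNAs are past 2-fold. Their overlap with the 2-fold calls is thus no separate check, and the deposited p-values rest on 1 library per diet.

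**Figure D4:**
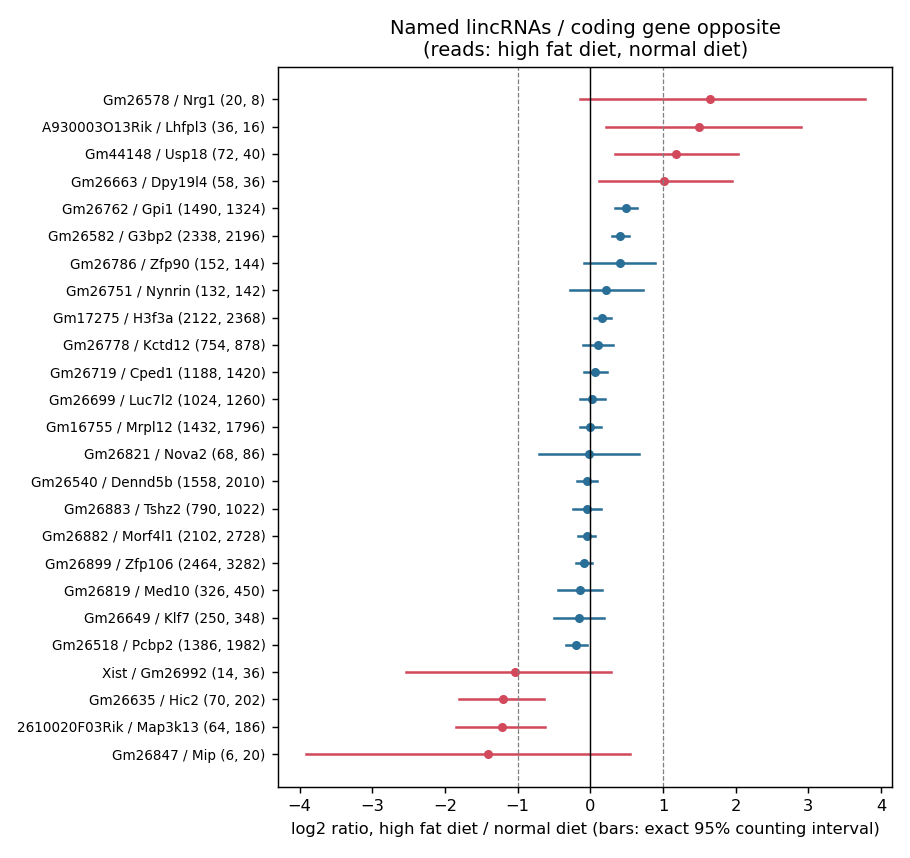
Log2 ratio of high fat diet to normal diet for the 25 lincRNAs named by rule, with the exact 95% counting interval as a bar and the reads of both libraries in brackets. The 8 called ones (red) have wide intervals, and the 10 with the most reads lie between -0.19 and 0.49.

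The 10 lincRNAs of the set with the most reads differed by less than 1.5-fold between the diets. Each of the 10 had a log2 ratio between -0.19 and 0.49, and none was called. The 8 lincRNAs left out by name reached up to 44864 reads over both libraries, against 5746 in the set, and 4 of them were called. Of the 74 known lncRNAs with 500 reads or more in the higher library, 56 differed by less than 1.5-fold. Gm26899 had 2464 reads in the HFD library and 3282 in the ND library, or 12731 and 13551 CPM, with a log2 ratio at -0.09 (-0.20 to 0.02). Gm26882 had 2102 against 2728, a ratio of -0.05 (-0.17 to 0.06). Gm16755 had 1432 against 1796, 7399 and 7416 CPM, and a ratio of 0.00 (-0.15 to 0.14), the closest to equal of the 10.

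Counting intervals that excluded 0 were found for 4 of these 10. Gm26762, nested in Gpi1, the gene of the glycolytic enzyme glucose phosphate isomerase, had 1490 reads against 1324 and a log2 ratio of 0.49 (0.34 to 0.65). Gm26582 meets G3bp2, a stress granule protein gene, over 2050 bases and Cdkl2, a kinase gene, over 166. It had 2338 against 2196 (0.41, 0.29 to 0.53). Gm17275, nested in the replacement histone gene H3f3a, had 2122 against 2368 (0.17, 0.04 to 0.29). On the other side, Gm26518, opposite the poly(C)-binding protein gene Pcbp2, had 1386 against 1982 (-0.19, -0.33 to -0.05). It shares 50-base stretches with 852 genes elsewhere, and how reads of such stretches were assigned is not stated. Such stretches were also found for Gm16755 (76 genes), Gm26762 (59), Gm17275 (28) and Gm26882 (6).

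The remaining 3 of the 10 had intervals that included 0. Gm26540 had 1558 reads against 2010 (log2 ratio -0.04). Gm26719, which starts 81771 bases from the start of Cped1 and inside its span, had 1188 against 1420 (0.07). Gm26699, 99.7% of which lies opposite Luc7l2, a splicing factor gene, had 1024 against 1260 (0.02).

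None of the 5 lincRNAs with the most opposed bases was called, where 7.62% of the 105 and 15.9% of all known lncRNAs were. The 5 were Gm26786 with 6243, Gm26883 with 5076, Gm26751 with 4245, Gm26819 with 4168 and Gm26778 with 3805. Gm26883 lies opposite the zinc finger homeobox gene Tshz2, 3054 of the shared bases being coding, and had 790 against 1022 reads (log2 ratio -0.05, -0.24 to 0.14). Gm26819, opposite the Mediator subunit gene Med10, had 326 against 450 (-0.14), and Gm26778, opposite the GABA-B receptor auxiliary subunit gene Kctd12, had 754 against 878 (0.10). Of the 14 lincRNAs opposed over 100% of their exon bases none was called, which for so few lincRNAs is near the 7.62%. Among the 14, 9 ratios lay above 0 and 5 below. Of the same 14, 2 differed by 1.5-fold to 2-fold, with intervals wholly beyond 1.5-fold, 1 higher and 1 lower. The longest 5 of the 14 were Gm26786 (0.40), Gm26751 (0.22), Gm26778, Gm26649 opposite Klf7 (-0.15) and Gm26821 opposite Nova2 (-0.02). Over the 105 lincRNAs, the opposed share and the size of the log2 ratio had a Spearman rho of -0.10, again only a description.

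Another 13 of the 105 differed by 1.5-fold to 2-fold, 7 higher and 6 lower. The interval excluded 0 for 4 and 6 of them. At 1.5-fold or more, 11 of the 105 were higher and 10 lower, or 20% in all, against 34.1% of all known lncRNAs, 15.9% higher and 18.1% lower. Those described here were picked after their values were seen. Gm26711, nested in Fbrsl1, had 82 reads against 194 (log2 ratio -0.92, -1.48 to -0.38).

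With more reads, Gm26841 and C330002G04Rik were lower by similar amounts. Gm26841, nested in H13, the signal peptide peptidase gene, had 484 reads against 992 (log2 ratio -0.71, -0.94 to -0.49). C330002G04Rik shares 351 bases, all coding, with the cation channel gene Trpm3. It had 474 against 974 (-0.72, -0.95 to -0.49), with 50-base stretches shared with 43 genes elsewhere. A930024N18Rik, divergent from the Notch ligand gene Dll1, had 44 against 96 (-0.80, -1.60 to -0.05).

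In the other direction, Gm44036, which meets the annexin gene Anxa4 over 75 bases, had 218 reads against 168 (log2 ratio 0.70, 0.28 to 1.13). Gm26735, opposite the transcription factor gene Sox4, had 128 against 100 (0.68, 0.12 to 1.24). Over the 105, the interval lay wholly beyond 1.5-fold for 1 lincRNA on the higher side and 3 on the lower side, Gm26635 and 2610020F03Rik among the latter.

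The coding genes were sorted by what they do, by hand and with the values known, so the class counts are descriptions only. For comparison, 55 of all 105 ratios lay above 0, with 16 intervals above 0 and 13 below, and over the 364 known lncRNAs 18.4% of intervals lay above 0 and 16.2% below. No class had more than 1 call in a direction, where 7.62% of the 105 and 15.9% of the 364 were called. In classes of this size, 0 calls is near the share of the set and is not read as a trait of a class. Opposite genes of RNA processing and translation, 13 of 15 lincRNAs reached the minimum, none was called and all 13 differed by less than 1.5-fold. They include Gm26668, opposite the spliceosome GTPase gene Eftud2 (134 reads against 146, log2 ratio 0.20), and 9530027J09Rik, opposite the ribosome biogenesis gene Utp14a (256 against 346, -0.11). This class held 5 of the 10 lincRNAs with the most reads.

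Where 7.62% of the 105 were called, none of the 12 lincRNAs opposite chromatin and Mediator genes was, and all 12 reached the minimum. Of these, 10 had a ratio below 0, with an interval below 0 for 1, and the interval of Gm17275 lay above 0. Gm26563, opposite the Polycomb gene Suz12, had 240 reads against 346 (log2 ratio -0.20, -0.55 to 0.14). Gm26625, opposite Ezh2, the methyltransferase of the same complex, had 38 against 48 (-0.01, -0.96 to 0.92). Gm26720, opposite the deacetylase gene Hdac4, had 112 against 166 (-0.24, -0.76 to 0.26).

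Opposite genes of metabolism and mitochondria, 12 of 14 reached the minimum and none was called, against 7.62% of the 105. Of the 12 ratios, 9 were above 0, with a median of 0.39 over the 12. The interval lay above 0 for 5, among them Gm26762 and Gm26527 opposite the lysosomal sulfatase gene Arsb (680 reads against 630, log2 ratio 0.43, 0.21 to 0.66). Another of the 5 was Ino80dos opposite the respiratory complex gene Ndufs1 (872 against 882, 0.31, 0.11 to 0.50). Ino80dos was classed by its 489 bases shared with Ndufs1, but it also shares 431 with Ino80d, a gene not of this class. The interval lay below 0 for D230017M19Rik, which meets Pecr, a peroxisomal enoyl-CoA reductase gene of fatty acid chain elongation, over 175 bases. This lincRNA had 738 against 1134 (-0.30, -0.49 to -0.10).

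Opposite genes of the endoplasmic reticulum, Golgi and trafficking, 9 of 12 reached the minimum and 1, Gm26663, was called. The interval lay above 0 for 4, including 2700016F22Rik opposite the membrane protein insertion gene Emc1 and sharing 50-base stretches with 416 genes (656 reads against 618, log2 ratio 0.41, 0.18 to 0.64), and below 0 for Gm26841. Opposite signalling genes 12 of 15 reached it, with Gm26578 higher and 2610020F03Rik lower. Opposite transcription factor genes 13 of 15 reached it, and Gm26635 alone was called. Gm26675, opposite the zinc finger gene Zfp597, had 180 against 324 (-0.52, -0.91 to -0.14).

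The 3 lincRNAs opposite interferon and innate immunity genes that reached the minimum all had ratios above 0. Beside Gm44148 at Usp18, these were Gm26637, divergent from Eif2ak2, the gene of the double-stranded RNA sensor kinase PKR, with 86 reads against 68 (log2 ratio 0.66, -0.02 to 1.36), and 9330175E14Rik, divergent from Nlrc5, an activator of MHC class I genes, with 86 against 72 (0.58, -0.09 to 1.26). The latter intervals include 0. For 9330175E14Rik only 78 bases, 1.31% of its exon bases, are opposed, and Gm26637 also shares 86 bases with Sult6b1. The fourth, Gm16499 opposite the Toll-like receptor helper gene Tril, had 4 against 8 reads. Of 10 opposite cytoskeleton, adhesion and matrix genes 6 reached the minimum and none was called, and of 7 opposite channel, synapse and sensory genes 3 did. These 3 had ratios below 0, and Gm26847 was called lower, as were 8.24% of all known lncRNAs. The intervals of C330002G04Rik and Gm26694 lay below 0, as did 16.2% over all known lncRNAs. The class is a loose one, since Gm26694 lies mainly opposite Metrn (1826 shared bases), which is not a channel gene. Gm26847 also shares 111 bases with Timeless. Another 25 had partners placed in no class, of which 22 reached the minimum, A930003O13Rik being higher and Xist lower.

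**Figure D5:**
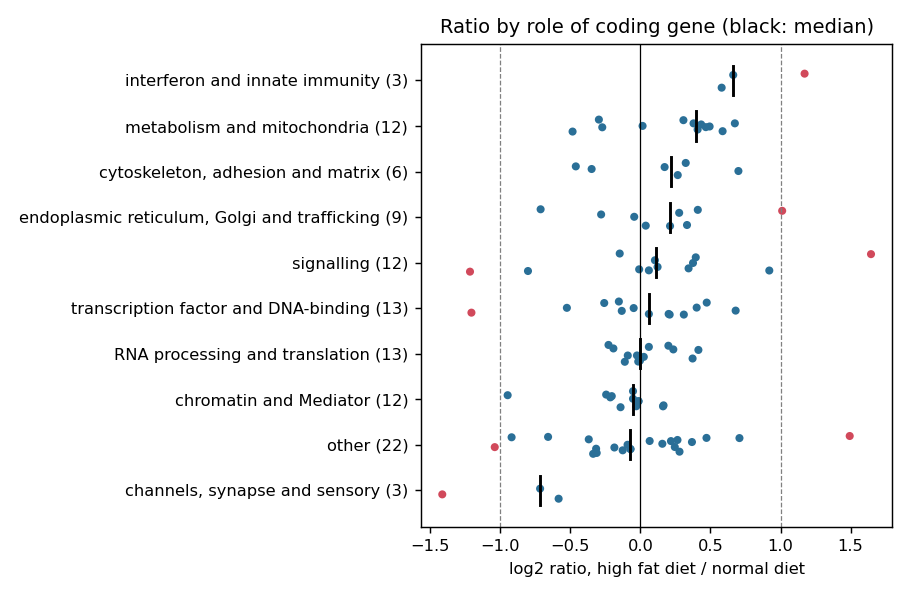
Log2 ratio of high fat diet to normal diet for the 105 lincRNAs with at least 20 reads, by the role of the coding gene opposite (number in brackets), with 1 point per lincRNA, called ones in red and the median of each class as a black line. Most points lie within 2-fold (dashed lines), and class medians rest on 3 to 22 lincRNAs each.

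One coding gene, Tshz2, lay opposite a pair of these lincRNAs with very different levels. Gm26883 had 811 CPM per kb over both libraries and A630075F10Rik, which shares 175 bases with Tshz2, had 22.7, with 4 reads against 16. Fam214b was shared between Gm26643, with 264 reads against 254, and the antisense lncRNA Gm26881, with 4 reads in each library. The overlap minimum of 50 bases set the edge of the whole group. Just inside it were 2610020F03Rik with 54 bases and 4931403G20Rik with 56 (170 reads against 164). Just outside were Gm26909 with 45 shared bases (184 against 154), Gm26848 with 42 (66 against 68), Gm17281 with 42 (24 against 10) and Mkln1os with 39 (8 against 42).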

How the data were processed

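RNA of mouse liver was sequenced in 1 library per diet, grouped by the diet label. The build mm8 and the tools HISAT2, HTSeq and DESeq are named in the submitters' processing notes, without roles or versions. The authors deposited CPM values, called normalized in the file headers, with the fold ratio of high fat to normal diet, its log2, and p-values. Dividing each CPM value by the smallest of its column (1 read, 5.17 and 4.13 CPM) gave whole reads for 100% of values within 1e-06. Numbers other than 1 were even, so intervals use pairs of 2 reads, and 1 read was taken as 0. A test across libraries on these reads was not possible with 1 library per diet. A table of numbered lncRNAs without positions was not used.

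Ensembl identifiers were matched to GENCODE M21 (GRCm38) for 606 of 614 rows; 8 had no gene type and could not be members. Overlaps rest on M21 exons, which may differ from the models the authors counted. Log2 ratios have exact Clopper-Pearson 95% intervals from the split of read pairs. Their calculation was run on simulated independent read pairs, the model they assume, which says nothing of variation between animals. PCR copies without molecular identifiers are not independent, so intervals and limits cover counting error only. Stretches of 50 bases were searched in transcripts of genes elsewhere and found for 33 members, with 1 to 852 genes. Named lincRNAs are all called ones, the 10 with most reads, the 5 with most and the 5 with the largest share of opposed bases (ties at 100% broken by their number), and those opposite listed metabolic, transcription, chaperone, immune and plasma protein genes (Hic2 and Usp18 were the listed genes met). Some members are counted but not reported here by name. Members, lists and role classes of coding genes were chosen with earlier results of these data known. Alternatives changed the read minimum, fold, scaling, pseudocount, overlap and call rule. Python 3.11.15, NumPy 2.4.6, SciPy 1.17.1, pandas 2.3.3 and Matplotlib 3.10.9 were used.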

Additional observations from a re-analysis of the deposited data

How the results depend on the processing

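Of the 105 lincRNAs that reached the read minimum, 4 were higher and 4 lower. Without a minimum 10 were higher and 7 lower, with 100 reads 0 and 2, at 1.5-fold 11 and 10, and at 4-fold 0 and 0. With an overlap of 200 bases 2 were higher and 3 lower, and with at least 50% of exon bases opposed 0 and 2. Leaving out lincRNAs that share 50-base stretches with genes elsewhere, an unplanned setting, left 77 with 3 higher and 3 lower. Replacing the read minimum by an adjusted p up to 0.05 in the authors' deposited table gave 2 and 2, all among the calls above, and with an interval excluding 0, 3 and 2. A pseudocount of 5 reads gave 3 and 2 and ended the calls of Gm26663 (log2 ratio 0.94), Xist (-0.79) and Gm26847 (-0.86), and a pseudocount of 1 read those of Gm26663 (0.997) and Xist (-0.98). Median-ratio scaling moved log2 ratios by -0.05 and gave 3 and 4. The median log2 ratio, 0.04, was -0.01 with that scaling and -0.02 with 50% of exon bases opposed, so its sign is not fixed. The share of reads was 17.1% and 16.7% with an overlap of 200 bases, 18.8% and 18.5% without Gm26899, and 44.1% and 45.5% with the 8 lincRNAs left out by name, a setting added after the data were seen. At 1.5-fold 20% of the set and 34.1% of all known lncRNAs were past the threshold. Over 25 named lincRNAs, all 75 values under other scaling or pseudocounts stayed within their counting interval and 0 calls reversed. The scaling shift is small and the same for all, and pseudocounts move mainly ratios of few reads, whose intervals are wide. This outcome was therefore largely fixed in advance. No paired analysis was possible because only 1 library represents each diet, and no library could be left out for the same reason. Depth left 24 of the 129 under the minimum.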

Other observations

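The 24 lincRNAs under the read minimum had at most 16 reads in the HFD library and 18 in the ND library, and in 14 of them both 5′ ends lie in the overlap. They include Gm5914, opposite Ctcf, the gene of the main insulator protein, with 16 reads against 18, Gm6297, opposite the chaperone gene Dnaja1, with 12 against 18, and Gm29233, opposite the matrix protein gene Thbs1, with 10 against 16. Gm26707, opposite the cytochrome P450 gene Cyp2s1, had 10 against 6, and Gm34086, opposite the lysosomal peptide transporter gene Abcb9, had 14 against 4. No difference was detectable for these 5 at this depth. A830052D11Rik, opposite the membrane curvature gene Bin1, was listed at 1 read in the HFD library, taken as 0, against 14, and the upper limit of its log2 ratio was -0.20.

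Gm26870 (chromosome 9) differs from the rest in its partners, with exons opposite 6 coding genes and from 155 to 299 bases shared with each. It had 26 reads in the HFD library against 42 in the ND library, a log2 ratio of -0.37 (-1.49 to 0.70). Its 50-base stretches occur in 3 genes elsewhere.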
